A study of Homo sapiens with 17 samples.

Results

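The immediate early transcription factors examined here are FOS, FOSB, FOSL2, JUN, JUNB, JUND, EGR1, EGR2, EGR3 and IER2, followed across 17 arrays of NKYS cells. They were taken by name, as genes measured by a probe set annotated to that gene symbol alone. Of the 10 listed genes, 9 had such a probe set, exactly 1 for each of them, among 18377 genes named in this way, and EGR2 was not analysed here. The 9 genes, with their probe sets, are FOS (7975779), FOSB (8029693), FOSL2 (8041048), JUN (7916609), JUNB (8026047), JUND (8035445), EGR1 (8108370), EGR3 (8149720) and IER2 (8026163).

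NKYS is an established human cell line from a natural killer cell lymphoma, and it was cultured with interleukin-2. The study compared manipulations of the kinase JAK3 and of EZH2, the histone methyltransferase subunit of Polycomb repressive complex 2, with their controls. All cells were electroporated, with siRNAs on 8 arrays and with plasmids on the other 9. JAK3 siRNA was used on 2 arrays, each with a like-numbered control siRNA array. EZH2 siRNA was used on 2 arrays, and the titles tie each of them to its own control siRNA array. The plasmid arrays form set 1 and set 2, by the number in the title or in the transfection code. Each set holds 1 empty vector array and 3 arrays with a full-length EZH2 plasmid, titled Y244D, Y244A and WT (wild type). A further array, titled SET∆, carried EZH2 without its catalytic SET domain and has no set number. For the 3 full-length arrays of set 2 the construct in the title is not the one in the transfection entry. They are named here by title, and no allele was tested against another. The time from electroporation to RNA extraction, the promoter that drives the plasmids and the share of cells that took them up are not given in the sources used here.

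Immediate early genes are transcribed within minutes of a stimulus from factors already present in the cell, without new protein synthesis. Their promoters respond to MAP kinase and calcium signalling through serum response factor with its ternary complex partners, and through CREB family proteins at cyclic AMP response elements. FOS and JUN family proteins pair to form the transcription factor AP-1, EGR proteins are zinc finger factors for GC-rich sites, and in lymphocytes both groups take part in cytokine and receptor responses.

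The promoter sequences of 5 genes with higher deposited signal on plasmid than on siRNA arrays are shown. That of FOSL2, whose deposited signal was lower there, is added, so that shared and unshared elements can be read. Each is the 250 bases before the RefSeq start site in GRCh38.p14, written 5′ to 3′ on the strand of the gene. Capitals mark TGACG on either strand (the core of a cyclic AMP response element), the full palindrome TGACGTCA, and the CArG box, to which serum response factor binds. FOS lies at chr14:75278578-75278827 on the plus strand, FOSB at chr19:45467746-45467995 (plus), JUN at chr1:58784048-58784297 (minus), JUND at chr19:18281623-18281872 (minus), EGR1 at chr5:138465229-138465478 (plus) and FOSL2 at chr2:28392608-28392857 (plus).
FOS: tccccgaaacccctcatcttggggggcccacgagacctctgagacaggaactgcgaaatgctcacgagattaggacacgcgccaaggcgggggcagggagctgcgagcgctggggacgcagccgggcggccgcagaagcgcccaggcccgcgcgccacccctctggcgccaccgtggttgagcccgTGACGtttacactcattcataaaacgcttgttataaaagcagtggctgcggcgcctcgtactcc
FOSB: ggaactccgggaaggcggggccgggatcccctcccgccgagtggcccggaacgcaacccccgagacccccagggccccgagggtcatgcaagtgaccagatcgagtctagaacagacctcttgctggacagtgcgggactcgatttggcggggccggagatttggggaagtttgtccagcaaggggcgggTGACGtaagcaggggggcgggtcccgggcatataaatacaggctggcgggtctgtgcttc
JUN: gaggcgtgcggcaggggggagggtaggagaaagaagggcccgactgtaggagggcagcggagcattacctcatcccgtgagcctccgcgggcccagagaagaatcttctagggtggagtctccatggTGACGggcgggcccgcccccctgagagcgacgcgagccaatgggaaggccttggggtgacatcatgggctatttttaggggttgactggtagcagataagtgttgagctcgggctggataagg
JUND: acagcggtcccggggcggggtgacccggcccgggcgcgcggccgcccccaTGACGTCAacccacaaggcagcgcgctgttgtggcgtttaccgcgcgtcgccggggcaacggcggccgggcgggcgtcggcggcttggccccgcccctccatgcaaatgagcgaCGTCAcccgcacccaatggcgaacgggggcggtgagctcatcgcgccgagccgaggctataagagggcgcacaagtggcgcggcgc
EGR1: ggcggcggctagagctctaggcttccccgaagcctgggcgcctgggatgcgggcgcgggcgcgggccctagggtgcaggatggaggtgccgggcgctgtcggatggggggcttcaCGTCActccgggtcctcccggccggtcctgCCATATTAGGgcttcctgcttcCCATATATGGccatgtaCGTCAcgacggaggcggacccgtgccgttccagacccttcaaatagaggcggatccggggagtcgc
FOSL2: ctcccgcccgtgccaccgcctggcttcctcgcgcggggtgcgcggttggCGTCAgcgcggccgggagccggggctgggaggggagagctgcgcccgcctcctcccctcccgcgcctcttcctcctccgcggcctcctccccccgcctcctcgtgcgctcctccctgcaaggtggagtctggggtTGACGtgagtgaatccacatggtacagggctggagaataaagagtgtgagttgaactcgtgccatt

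The search covered these windows and the 50 bases after the start site, on both strands, for the 8 genes that matched by symbol in the table of 35116 RefSeq promoters. TGACG was present in 8 of 8 windows, against 24.6% of all promoters of that length. FOSL2, whose deposited signal was lower on plasmid arrays, also holds it, on the minus strand from position -201 and on the plus strand from -66. The palindrome TGACGTCA, which contains TGACG on each strand, was present in JUND alone, from -200, and in 1.8% of all promoters. The CArG box was present in EGR1 alone, at -105 and at -83, and in 1.3% of all promoters. An AP-1 site, TGANTCA, was present in FOSL2 alone, at position 5 after the start and so beyond the stretch shown, and in 7.7% of all promoters. The EGR site GCGNGGGCG was present in EGR1 alone, at -198, and in 9.4%. A TATA box, TATAAA, was present in FOS at -33, FOSB at -30 and JUNB at -31, and in 11.5% of all promoters. These are matches of letters in a short window, and no binding was measured.

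The deposited values are linear signal intensities from 19.39 to 15690, without units. The median signal per array was 60.28 to 62.46 on siRNA arrays, 68.06 to 72.98 in set 1, 64.48 to 69.44 in set 2 and 69.98 on the SET∆ array. The interquartile range of log2 signal was 2.265 to 2.33 on siRNA arrays, 1.79 to 2.034 in set 1, 1.986 to 2.183 in set 2 and 1.858 on the SET∆ array, so that the spread of signals differed between the kinds of array compared below. Array numbers limit the precision of every value. Of 14 natural killer cell markers, 13 were measured and 12 of those had a mean signal above the 30th percentile of the array signals. They include PRF1 and GZMB, the cytotoxic granule proteins, and also GNLY, at only 45.2 to 68.1. FCER1G, a signalling chain of natural killer receptors, was not among them, at 30.7 to 39.1. The T cell receptor complex genes CD3D, CD3E and CD3G lay at 29.9 to 41.9, near the lower quartile of the arrays (32.43 to 38.56). Of the 8 T cell markers 4 had a mean above the 30th percentile, among them CD4, at 210.4 to 420.4, and TRAT1, at 41.3 to 263.1. Of the markers measured for other cell types, 5 of 6 for B cells, 5 of 8 for monocytes or macrophages and 7 of 9 for epithelial cells or fibroblasts passed that percentile as well. Passing it therefore does not tell cell types apart. The targeted genes followed the labels. JAK3 was at 138.1 and 136.7 with JAK3 siRNA against 322.5 and 326.3 with its control, and fell by 1.24 on the log2 scale (SE 0.0692; limma with Benjamini-Hochberg adjustment, adjusted p = 5.7e-06). EZH2 was at 500.9 against 926.3 in the EZH2 siRNA pair 1 and at 488.7 against 690.8 in pair 2, and fell by 0.69 (SE 0.0884, adjusted p = 0.0275). EZH2 was at 258.8 and 349.5 with the empty vector and between 802.5 and 2220.8 with the full-length plasmids.

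The clearest pattern in these genes was between kinds of array. FOS, FOSB, JUN, JUNB, JUND, EGR1 and IER2 were higher on each of the 9 plasmid arrays, empty vectors included, than on any of the 8 siRNA arrays. That is 7 of 9 genes, where 10.2% of 14433 genes lay wholly higher. FOSL2 was lower on each plasmid array than on any siRNA array, as were 20.5% of genes. After quantile normalization 6 genes lay wholly higher (EGR1 overlapped, against 8.38% of genes) and FOSL2 overlapped. After centring each array on its median 6 lay wholly higher (JUN overlapped, against 2.84% of genes) and FOSL2 stayed lower. In bulk RNA, fewer cells that express a gene and less of its RNA per cell cannot be told apart.

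**Figure D1:**
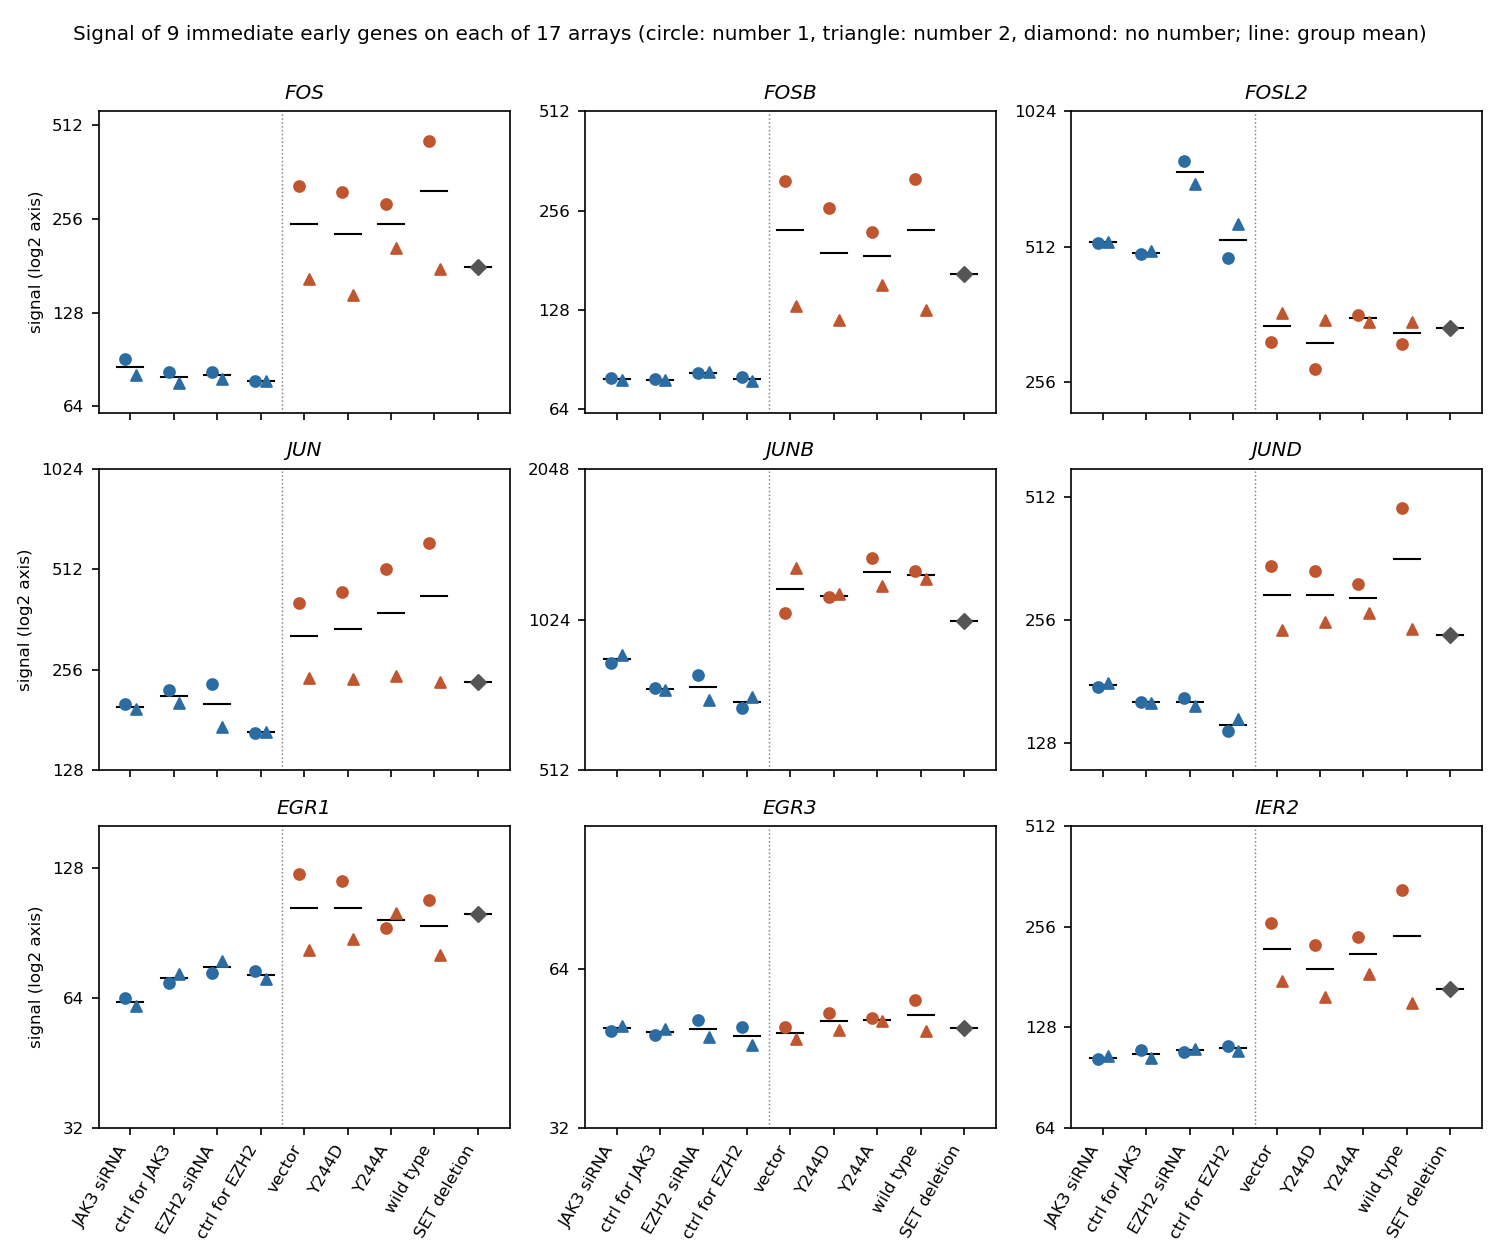
Deposited signal (log2 axis) of 9 immediate early genes on each of the 17 arrays, with siRNA arrays in blue, numbered plasmid arrays in orange and the SET∆ array in grey. Circles and triangles are arrays numbered 1 and 2 and short lines are group means; in FOS, FOSB, JUN, JUND and IER2 the plasmid circles lie above the plasmid triangles, and both above the siRNA arrays.

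FOS, which pairs with JUN proteins to form AP-1, was low and even on the siRNA arrays. Its signal was 90.5 and 80.8 with JAK3 siRNA, 82.7 and 76.3 with the control for JAK3, 82.3 and 78.6 with EZH2 siRNA, and 77.2 and 77.1 with the control for EZH2. In set 1 it was 326.9 with the vector, 312.9 with Y244D, 286.2 with Y244A and 453.1 with WT. In set 2 it was 163.7, 145.3, 205.7 and 177.2 in the same order, and on the SET∆ array 179.1. The order was therefore siRNA arrays, then set 2, then set 1, with no overlap, and the SET∆ array fell within the range of set 2.

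FOSB, a close relative of FOS with a like role in AP-1, followed the same order with a narrower siRNA range. It lay between 78.1 and 83.1 on the 8 siRNA arrays, with a median of 79.4. In set 1 it was 315.1 with the vector, 260.4 with Y244D, 220.8 with Y244A and 320.1 with WT, and in set 2 131.4, 119.6, 152.4 and 127.9. The sets did not overlap, the array titled Y244A was the lowest of set 1 and the highest of set 2, and the SET∆ array, at 165, lay between the sets.

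FOSL2, which encodes FRA2, an AP-1 subunit that lacks the transactivation domain of FOS, went the other way in the deposited values. It lay wholly lower on plasmid arrays, as did 20.5% of genes, but overlapped after quantile normalization. On siRNA arrays it was 521.6 and 524.5 with JAK3 siRNA, 492 and 501.5 with its control, 794.1 and 705.9 with EZH2 siRNA, and 483.7 and 574.1 with the control for EZH2. The EZH2 siRNA arrays stood above the other 6, which spanned 483.7 to 574.1. With plasmids it was 315.1, 273.5, 361.6 and 311.4 in set 1, 365.5, 352, 347.7 and 348.3 in set 2, each in the order vector, Y244D, Y244A and WT, and 338.3 on the SET∆ array. The sets overlapped.

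JUN, the partner of FOS in the classical AP-1 dimer, had the tightest set 2 of the genes that differed between sets. It was 201.8 and 195.1 with JAK3 siRNA, 222.1 and 204.3 with its control, 232.6 and 172.4 with EZH2 siRNA, and 165.7 and 167.3 with the control for EZH2. In set 1 it was 404.8 with the vector, 438.6 with Y244D, 511.5 with Y244A and 615 with WT. In set 2 it was 241.3, 240, 244.8 and 235.9, and on the SET∆ array 235.8. The highest siRNA array, EZH2 siRNA number 1, lay just under the lowest plasmid array, so that the margin between kinds of array was small for JUN.

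JUNB, a JUN relative that is induced by cytokines as well as by growth factors, was higher on plasmid than on siRNA arrays, while its sets overlapped as deposited. It was 839.7 and 869 with JAK3 siRNA, 748.3 and 741.1 with its control, 795 and 709.2 with EZH2 siRNA, and 681.7 and 717.8 with the control for EZH2. Plasmid arrays spanned 1016.6, on the SET∆ array, to 1356.8, on the set 1 array titled Y244A, with a median of 1194.7. The sets spanned 1056.6 to 1356.8 and 1151.3 to 1300.4, but after quantile normalization JUNB lay higher on all 4 arrays of set 1 than on any of set 2.

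JUND, which is commonly present in resting cells and less inducible than JUN and JUNB, lay between 137.5 and 179.5 on the siRNA arrays, with a median of 161.5. In set 1 it was 347.6 with the vector, 337.2 with Y244D, 313.7 with Y244A and 481 with WT. In set 2 it was 242.4, 253.2, 266.5 and 243.4, and on the SET∆ array 235.4. The sets did not overlap, and the WT array of set 1 stood apart above the other 3 of its set.

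EGR1, the best known zinc finger factor of the family, was 63.9 and 61.5 with JAK3 siRNA, 69.5 and 72.9 with its control, 73.1 and 77.8 with EZH2 siRNA, and 73.8 and 70.8 with the control for EZH2. In set 1 it was 123.9 with the vector, 119.4 with Y244D, 93.1 with Y244A and 107.8 with WT. In set 2 it was 82.7, 87.9, 101 and 80.7, and on the SET∆ array 100.2. The sets overlapped through the arrays titled Y244A, the lowest of set 1 and the highest of set 2. EGR3, its relative with a role in lymphocyte activation, lay between 46 and 56.1 on all 17 arrays, not far above the 30th percentile of each array's signals (36.19 to 44.19), and siRNA and plasmid arrays overlapped.

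IER2, a small nuclear protein encoded by an early response gene, lay between 102.8 and 112.4 on the siRNA arrays, with a median of 108.5. In set 1 it was 262.5 with the vector, 225.6 with Y244D, 238.8 with Y244A and 329.9 with WT. In set 2 it was 176.2, 157.4, 185.2 and 151.8, and on the SET∆ array 167.1. The order was again siRNA arrays, set 2, set 1, without overlap.

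Loss of JAK3 was compared with its control siRNA to ask which genes respond to the kinase. None of the 9 immediate early genes passed the test, in a comparison in which 1.38% of 14466 genes were called, 0.622% higher and 0.76% lower (limma over the 8 siRNA arrays, Benjamini-Hochberg adjusted p under 0.05). Their log2 differences ran from -0.18 to 0.20, with a median of 0.02 against -0.01 over all genes, and 6 of 9 were above 0. JUNB was at 839.7 and 869 against 748.3 and 741.1, a log2 difference of 0.20 (SE 0.0771, unadjusted p = 0.0244 and adjusted p = 0.301 by limma). EGR1 was at 63.9 and 61.5 against 69.5 and 72.9, a difference of -0.18 (SE 0.0738, unadjusted p = 0.0278 and adjusted p = 0.32 by limma). These are the 2 genes with an unadjusted p under 0.05. In both the JAK3 siRNA arrays lay outside the range of their controls, but so they did for FOSL2, JUN and JUND. The share of all genes for which this held was not counted. For FOS the interval of the difference was -0.07 to 0.28, and for JUN -0.31 to 0.11. Separate cultures are not named in the labels, so all p-values here measure the spread between arrays, which may be technical.

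The genes around them gave few calls after JAK3 siRNA. Among 33 other immediate early and early response genes tested, 1 rose and 0 fell, where 0.622% of all genes were called higher. Their median log2 difference was -0.01, equal to that of all genes. The gene that rose was TRIB1, a pseudokinase that guides proteins to degradation (0.75, SE 0.0739, limma adjusted p = 0.000304). None of 13 AP-1 partners and EGR corepressors, 12 upstream promoter factors or 21 MAP kinase cascade genes was called. The smallest p among these had MAP2K6, a kinase that activates p38 (0.37, limma adjusted p = 0.101), and EP300, a CREB coactivator (0.22, adjusted p = 0.252).

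EZH2 siRNA was compared with its paired control in the same way, and FOSL2 rose. Its signal went from 483.7 to 794.1 in pair 1 and from 574.1 to 705.9 in pair 2, log2 differences of 0.72 and 0.30. The fitted difference was 0.51 (1.42-fold, SE 0.0909, limma with Benjamini-Hochberg adjustment, adjusted p = 0.0341), at the 99.7 percentile of all genes tested. This was 1 of 9 genes called higher, where 0.373% of all genes were called higher and 0.94% in either direction. Of all called genes 39.7% were higher, 58.8% after quantile normalization and 16.1% after median centring. The call for FOSL2 ended without the filter on low signal (adjusted p = 0.128) and without the pair as a block (0.052). It also ended when either array of pair 1 was left out (0.30, adjusted p = 0.308 and 0.309), and held when either array of pair 2 was (0.72, 0.0012 and 0.00121). Over all alternatives run for FOSL2 the adjusted p lay between 0.0012 and 0.309.

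The other 8 genes were not called after EZH2 siRNA. JUN was at 232.6 against 165.7 in pair 1 and at 172.4 against 167.3 in pair 2, differences of 0.49 and 0.04. Its fitted difference was 0.27 (SE 0.0971, limma adjusted p = 0.201), and without either array of pair 2 it was 0.49 with an adjusted p of 0.0112 and 0.0113. The JUN signal on EZH2 siRNA array 1 was thus the highest of all siRNA arrays, while array 2 lay among the others. JUND had 0.27 and 0.11 in the pairs and a fitted 0.19 (SE 0.0724, limma adjusted p = 0.226). JUNB had 0.22 in pair 1 and -0.02 in pair 2, and IER2 -0.06 and 0.02. The median of the 9 genes was 0.06 against 0 for all genes, and 8 of 9 were above 0.

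**Figure D2:**
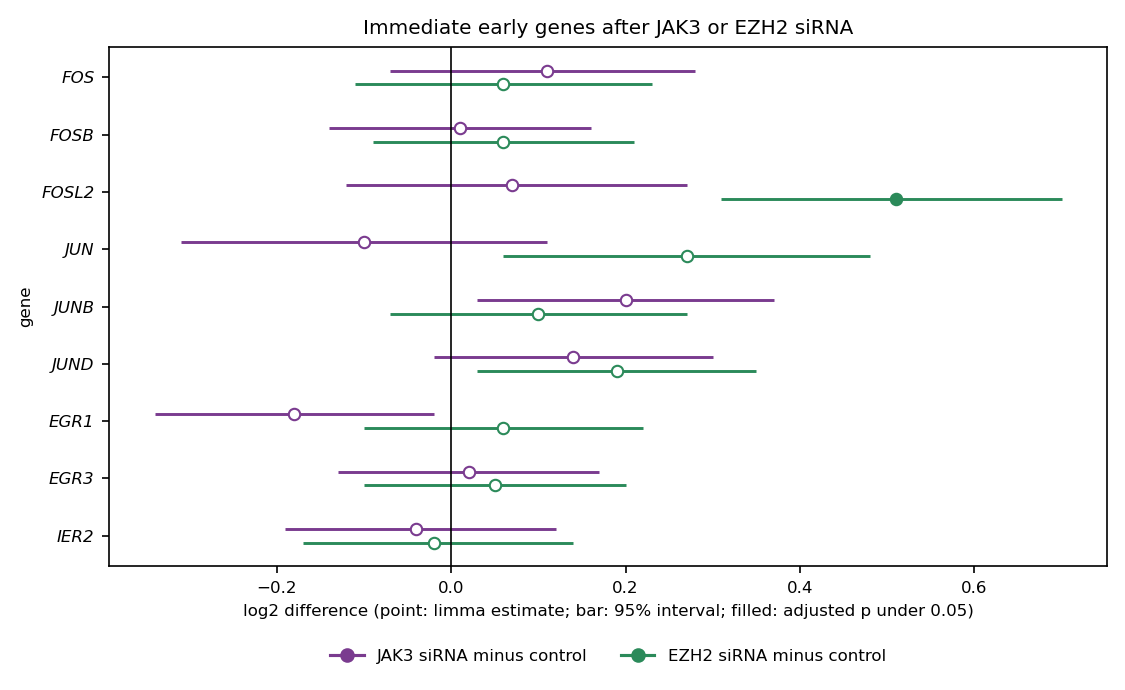
Log2 difference of each immediate early gene after JAK3 siRNA (purple) or EZH2 siRNA (green) from its control, as limma estimates with 95% intervals over the 8 siRNA arrays. FOSL2 after EZH2 siRNA, at 0.51, is the single filled point (adjusted p under 0.05).

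Among the surrounding gene lists 0 of 33 other early response genes, 0 of 13 AP-1 partners and EGR corepressors, 0 of 12 promoter factors and 0 of 21 MAP kinase genes were called after EZH2 siRNA. The early response genes had a median of 0.06 and the AP-1 partners of 0.10, against 0 for all genes. The smallest p in the lists had ZFP36L1, an RNA-binding protein that promotes mRNA decay (0.39, limma adjusted p = 0.0666), and SGK1, a kinase (0.38, adjusted p = 0.0778). ATF3, an AP-1 partner, was at 0.36 (adjusted p = 0.145) here and at 0.27 (adjusted p = 0.345) after JAK3 siRNA.

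The difference between the effects of JAK3 siRNA and EZH2 siRNA was tested directly. None of the 9 genes was called, where 0.366% of all genes were, 0.138% higher and 0.228% lower. Of all called genes 37.7% were higher, and 50% after median centring. FOSL2 had a difference of -0.43 (SE 0.129, unadjusted p = 0.00554 and adjusted p = 0.28 by limma), JUN -0.37 (SE 0.137, adjusted p = 0.452) and EGR1 -0.25 (SE 0.104, adjusted p = 0.56). These 3 had an unadjusted p under 0.05. FOSL2 thus passed the test after EZH2 siRNA and not after JAK3 siRNA, but the effects were not shown to differ. With either array of EZH2 pair 2 left out, FOSL2 (-0.64, adjusted p = 0.0133 and 0.0134) and JUN (-0.59, adjusted p = 0.0297 and 0.0299) were called. TRIB1 was called, at 0.68 (adjusted p = 0.0197).

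The control siRNA arrays of the arms were compared as the background to these differences. None of the 9 genes was called, where 4.31% of all genes were, 2.93% higher and 1.38% lower in the JAK3 arm. The controls did not overlap between arms for JUN, JUNB and JUND, and the share of all genes for which this held was not counted. JUN was nearest to a call, at 222.1 and 204.3 in the JAK3 arm against 165.7 and 167.3 in the EZH2 arm. Its difference was 0.36 (SE 0.0971, limma adjusted p = 0.0626). This difference between controls was larger in size than the fitted JUN difference of either siRNA (-0.10 and 0.27), and it was called without EZH2 control array 2 (0.58, adjusted p = 0.00692). JUND differed by 0.18 (adjusted p = 0.206), and these 2 had an unadjusted p under 0.05. Of the lists, BTG1 (0.75), an antiproliferative factor, and TRIB1 (0.37) rose among the early response genes, and MEF2C (0.66) and ELK3 (0.33), a ternary complex factor, among the promoter factors, with adjusted p from 0.00276 to 0.0224.

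Full-length EZH2 plasmids were compared with the empty vector to ask what more EZH2 does in these cells. None of the 9 genes was called, and neither was any gene in all, so that the share called was 0% of 14410 genes. In that limma fit 10 genes had an unadjusted p under 0.05, and with the set as a block 0 genes were called as well. EZH2 itself was at 1.85 with an adjusted p of 1. Since even EZH2, the gene on the plasmids, was not called, the absence of calls cannot show that the 9 genes do not respond. The fitted differences of the 9 genes ran from -0.12 (FOSB) to 0.17 (JUN), with a median of 0.06 against 0.01 over all genes. Their intervals in this fit, which has no term for the set and so includes the difference between sets, were -0.84 to 1 for FOS, -0.73 to 1.08 for JUN and -0.26 to 0.38 for JUNB. With the set as a block the same differences had intervals of -0.33 to 0.49, -0.15 to 0.50 and -0.22 to 0.35, and 54 genes had an unadjusted p under 0.05 by limma. In the fit without the set the direction of FOS, FOSB, FOSL2, JUN, JUNB, JUND, EGR1 and IER2 turned when some single arrays were left out.

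Within sets, where vector and plasmids share a number, the 3 full-length arrays lay on one side of their vector for some genes and on both sides for others. In set 1, FOS stood at -0.06 with Y244D, -0.19 with Y244A and 0.47 with WT relative to the vector on the log2 scale, and in set 2 at -0.17, 0.33 and 0.11. JUN was above the vector on all 3 arrays of set 1, at 0.12, 0.34 and 0.60, and within 0.03 of it on all 3 of set 2, at -0.01, 0.02 and -0.03. JUNB was above the vector on all 3 arrays of set 1 (0.10, 0.36 and 0.28) and below it on all 3 of set 2 (-0.18, -0.12 and -0.08). EGR1 was below the vector throughout set 1 (-0.05, -0.41 and -0.20), and in set 2 had 0.09, 0.29 and -0.04. EGR3, at 46 to 56.1 the lowest of the 9 genes in signal, was the only one of them above the vector on all 6 arrays, by 0.05 to 0.17. In each set all 3 differences of a gene share 1 vector array, so they are not independent. The shares of all genes with such patterns were not counted. None of the 33 other early response genes, 13 AP-1 partners and EGR corepressors, 12 promoter factors or 21 MAP kinase genes was called in this comparison. The WT array of set 1 had the highest signal of all 17 arrays for FOS, FOSB, JUN, JUND, EGR3 and IER2.

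The SET∆ array is a single array, and no test was made. Against the vector of set 1 it was lower in FOS (-0.87), FOSB (-0.93), JUN (-0.78), IER2 (-0.65), JUND (-0.56) and EGR1 (-0.31). Against the vector of set 2 the differences were 0.13, 0.33, -0.03, -0.08, -0.04 and 0.28 in the same order. Which vector it is set against therefore decides the size for each of these genes, and for FOS, FOSB and EGR1 also the direction, as deposited. After quantile normalization the direction turned for JUN (-1.01 and 0.29), JUND (-0.82 and 0.28) and IER2 (-0.92 and 0.18) too. In the deposited values the remaining genes were as follows. JUNB was lower against both, at -0.06 and -0.36, FOSL2 was at 0.10 and -0.11, and EGR3 at -0.01 and 0.07. EZH2 was at 1471.1 on this array.

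**Figure D3:**
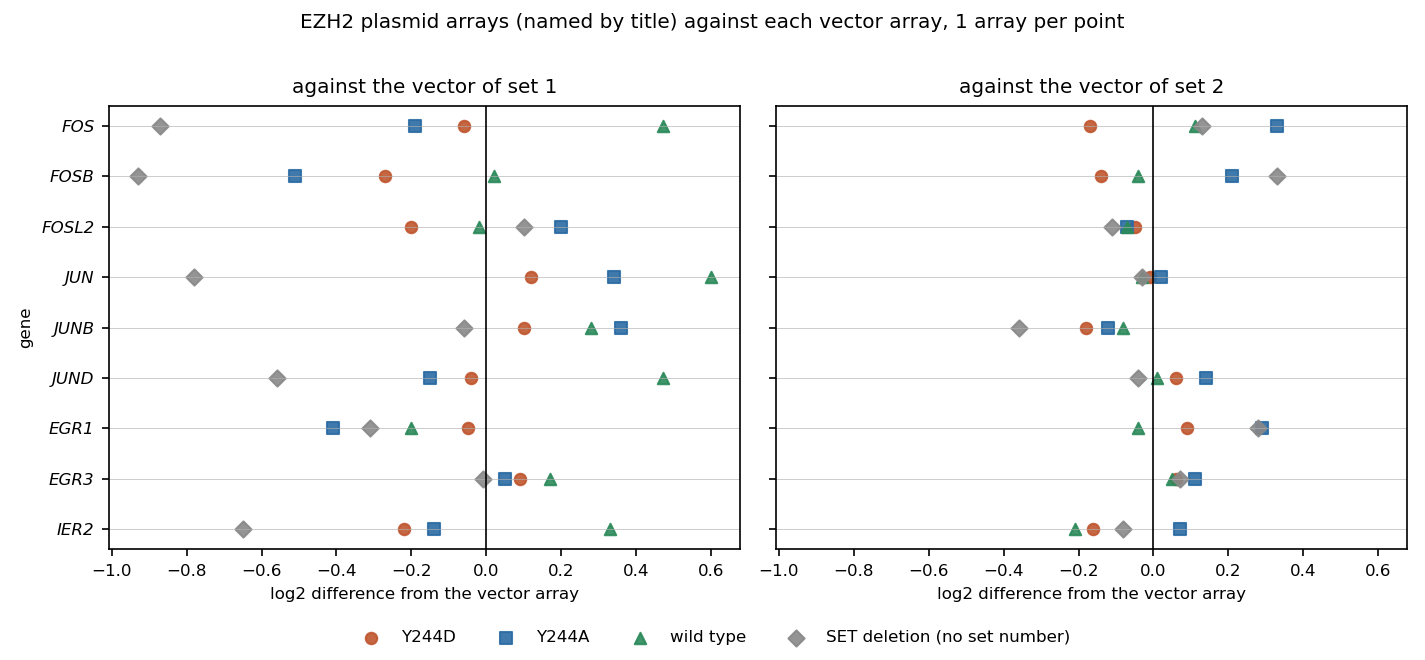
Log2 difference of each EZH2 plasmid array, named by title, from the vector array of set 1 (left) and of set 2 (right), with 1 array per point; the SET∆ array, which has no set number, is drawn in both. JUN on the full-length arrays stays within 0.03 of the vector in set 2 and spans 0.12 to 0.60 in set 1.

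The sets themselves were compared because each holds the same kinds of plasmid. FOS, FOSB, JUN, JUND and IER2 fell in set 2 relative to set 1, which is 5 of 9 genes, and 0 rose. In this comparison 12.7% of all genes were called lower and 34.5% in either direction. Of all called genes 63.2% were higher in set 2, 55.8% after quantile normalization and 79.5% after median centring. On all 4 arrays of set 1 these same 5 genes lay above all 4 of set 2, as did 14.7% of genes, and 0 of the 9 lay wholly below, as did 16.3%. After quantile normalization JUNB joined them, against 14.6% of genes, and after median centring they were the same 5, against 11.1%. The log2 differences were -1.06 for FOSB (SE 0.139, limma adjusted p = 0.00112), -1.02 for JUN (SE 0.127, adjusted p = 0.000859) and -0.98 for FOS (SE 0.161, adjusted p = 0.00292), each about a 2-fold difference (2.09, 2.02 and 1.98). They were -0.65 for IER2 (adjusted p = 0.00858) and -0.54 for JUND (adjusted p = 0.0173). The median of the 9 genes was -0.54 against -0.02 over all genes.

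EGR1 was at -0.33 (SE 0.125, limma adjusted p = 0.0606), FOSL2 at 0.17 (adjusted p = 0.211), EGR3 at -0.10 (adjusted p = 0.374) and JUNB at 0.02 (adjusted p = 0.879), and none of these was called. After quantile normalization FOSL2 (-0.14), JUNB (-0.15) and EGR3 (0.02) changed sign. FOS, FOSB, JUN and IER2 kept their calls under every alternative run for this comparison. JUND lost its call without vector 1 (-0.54, adjusted p = 0.0525), vector 2 (-0.54, 0.0523), Y244D of set 2 (-0.53, 0.058) or WT of set 2 (-0.51, 0.0634), and with a term for each title allele (-0.54, 0.053). EGR1 gained it without Y244A of set 1 (-0.41, adjusted p = 0.0193) or of set 2 (-0.41, 0.0185), and with no term for the plasmid (-0.33, 0.0437). The arrays titled Y244A stood apart. Their deviations from the group means correlated at 0.009 to 0.194 with those of their sets, where the vector, Y244D and WT arrays had 0.85 to 0.918 among themselves. Without both of them, an alternative chosen after seeing the data, EGR1 (-0.48, adjusted p = 0.00257) and FOSL2 (0.25, adjusted p = 0.0472) were called and the count over all genes went from 4966 to 10194.

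Among the other early response genes most calls between sets were lower. Of 33 tested, 18 fell and 1 rose, where 12.7% of all genes were called lower and 21.8% higher. Their median was -0.35 against -0.02 over all genes. Those with the smallest adjusted p were NFKBIZ, a nuclear regulator of NF-κB (-1.24, limma adjusted p = 0.000321), BTG1 (-0.77, adjusted p = 0.00118) and IER5 (-0.80, adjusted p = 0.0018). MCL1, an antiapoptotic protein, rose (0.61, adjusted p = 0.00708). Of 13 AP-1 partners and corepressors, 3 fell, namely BATF2 (-0.52), FOSL1 (-0.44) and ATF3 (-0.33), and 2 rose, ATF2 (0.82) and ATF7 (0.48). FOSL1 and ATF3 belong to the list of early response genes as well.

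In the upstream lists the calls were higher. Of 12 promoter factors 5 rose and 0 fell, with a median of 0.22, and EP300 (1.09, adjusted p = 0.000321) and CREBBP (0.98, adjusted p = 0.000846), the paired CREB coactivators, and MRTFB, a cofactor of serum response factor (0.56, adjusted p = 0.0144), had the smallest p by limma. Of 21 MAP kinase genes 8 rose and 0 fell, with a median of 0.44, led by MAP3K1 (1.09, adjusted p = 0.000679), SOS1 (1.01, adjusted p = 0.00124) and SOS2 (0.95, adjusted p = 0.00323). Over all genes 21.8% were called higher. Beside these results the interquartile range of the arrays also differed between sets, as given above. The summed signal of natural killer markers was 5710 to 7247 in set 1 and 5048 to 5524 in set 2, that of epithelial and fibroblast markers 769 to 1157 and 669 to 879. That of monocyte markers was 545 to 624 and 490 to 574, that of B cell markers 474 to 545 and 442 to 467, and that of T cell markers 544 to 732 and 582 to 677. The part of array spread or of these markers in the difference between sets was not tested.

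The empty vector was compared with control siRNA, the controls of the plasmid and siRNA arrays. They differed in EZH2 itself, at 258.8 and 349.5 on the vector arrays against 690.8 to 926.3 on the control siRNA arrays (-1.48, SE 0.184, limma adjusted p = 0.00257). JAK3 was at 206.4 and 262.5 against 309.7 to 339.9 (-0.48, adjusted p = 0.0606). The part of EZH2 and JAK3 levels in the differences that follow was not tested. FOS, FOSB, JUNB, JUND and IER2 rose, 5 of 9 genes, where 1.65% of all genes were called higher. FOSL2 fell, where 14.4% were called lower and 16% of 14466 genes in either direction. Of all called genes 10.3% were higher, 22.2% after quantile normalization and 4.3% after median centring. FOS went from a range of 76.3 to 82.7 on the 4 control arrays to 326.9 and 163.7 on the vector arrays, a difference of 1.56 (2.95-fold, SE 0.252, limma adjusted p = 0.00696). FOSB was at 1.37 (2.58-fold, SE 0.304, adjusted p = 0.0228), IER2 at 0.98 (1.98-fold, adjusted p = 0.0102), JUND at 0.94 (1.92-fold, adjusted p = 0.0125) and JUNB at 0.70 (1.62-fold, adjusted p = 0.0155). FOSL2 was at -0.59 (SE 0.141, adjusted p = 0.0292). JUN (0.73, adjusted p = 0.072), EGR1 (0.50, adjusted p = 0.0908) and EGR3 (0.01, adjusted p = 0.962) were not called. The median over all genes was 0.03, and -0.15 after median centring, so the centred differences of the 9 genes were lower, for FOS 1.39. The median of the 9 genes was 0.73.

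**Figure D4:**
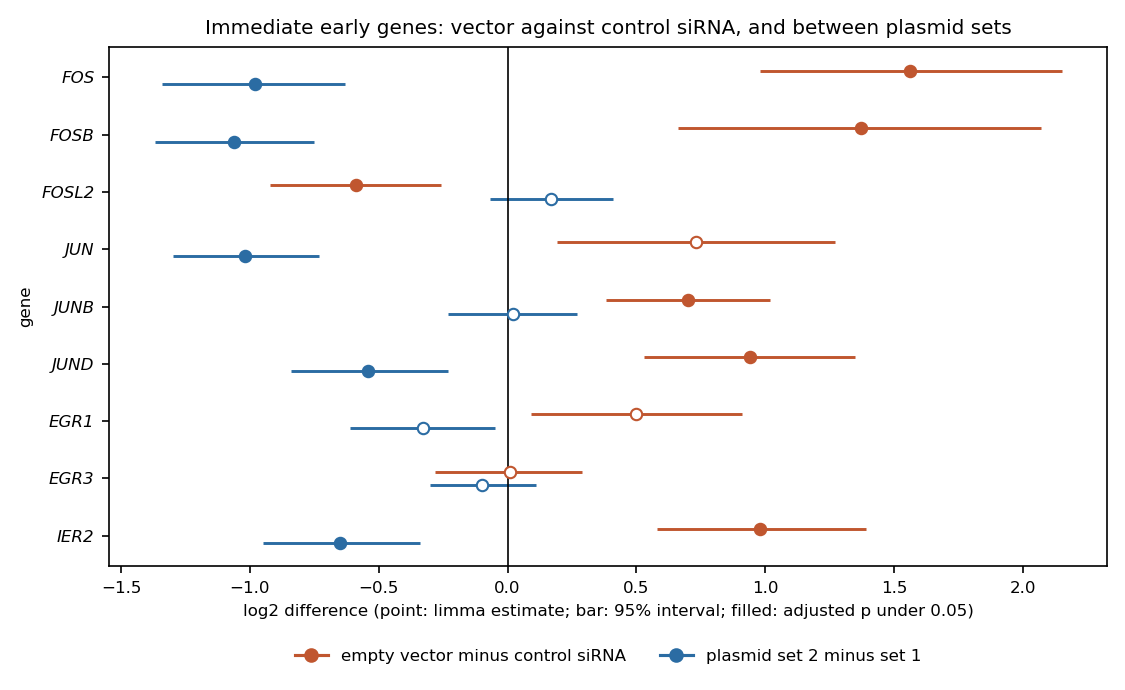
Log2 differences of the immediate early genes as limma estimates with 95% intervals, for the empty vector against control siRNA (orange, 6 arrays) and for plasmid set 2 against set 1 (blue, 8 arrays, which include both vectors). Filled points have an adjusted p under 0.05; FOS, FOSB, JUND and IER2 are filled in both, above 0 in orange and below 0 in blue.

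The comparison shares its vector arrays with the comparison of sets. For FOS, FOSB, FOSL2, JUN, JUND, EGR1 and IER2 the vector of set 1 lay farther from the control siRNA arrays. For JUNB the vector of set 2 did, at 1300.4 against 1056.6 in set 1 and 681.7 to 748.3 on the control siRNA arrays. Without vector 1, FOS was at 1.06 (adjusted p = 0.000157) and FOSB at 0.74 (0.000488). Without vector 2 they were at 2.06 and 2 (both 3.16e-06), and JUN (1.10, 5e-04) and EGR1 (0.79, 6.94e-05) were called too. The count over all genes was 3992 and 12220. Without any single control array FOSB, FOSL2 and JUNB lost their calls (adjusted p from 0.0599 to 0.0982), and FOS, JUND and IER2 kept them. With the controls of a single arm no gene of the 9 was called, where 0 genes in all were called with those of the JAK3 arm and 313 with those of the EZH2 arm. Quantile normalization left FOSL2 at -0.11 (adjusted p = 0.573) and FOSB at 1.55 (0.0702), and median centring left JUNB at 0.53 (0.0674). FOSB also lost its call without the filter on low signal (adjusted p = 0.0514), and FOSL2 with trended robust variance (0.0802). The kind of nucleic acid, any difference in processing between siRNA and plasmid arrays and the narrower spread of the plasmid arrays cannot be told apart in this design.

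Among 33 other early response genes 4 rose and 2 fell with the vector, where 1.65% of all genes were called higher and 14.4% lower. Their median was 0.32 against 0.03 over all genes. ZFP36, an RNA-binding protein that shortens the life of cytokine mRNAs (1.30, limma adjusted p = 0.00126), PPP1R15A, a phosphatase subunit of the integrated stress response (0.99, adjusted p = 0.00604), and NR4A2, a nuclear receptor (0.57, adjusted p = 0.0318), rose. MYC (-1.42, adjusted p = 0.00233) and NFIL3 (-1.49, adjusted p = 0.00459) fell. Of 13 AP-1 partners and corepressors 3 fell, namely BATF3 (-1.14), BATF (-0.76) and NAB1, a corepressor of EGR proteins (-0.75), and 0 rose. Of 12 promoter factors MEF2D rose (0.59) and ELK3 (-0.92), CREB1 (-0.88) and MEF2C (-0.97) fell, and of 21 MAP kinase genes RPS6KA5, a kinase that phosphorylates CREB, fell (-1.88, adjusted p = 0.00261). The summed natural killer markers were 7912 to 12210 on siRNA arrays, above every plasmid array, with 4511 on the SET∆ array. Single markers of that list did not all follow the sum. NKG7 was at 1262.3 to 1700.6 on siRNA arrays and 433.3 to 751.2 on plasmid arrays. CD7 was at 153.7 to 187.4 and 184.6 to 270.3 in the same order. The summed epithelial and fibroblast markers were 580 to 637 on siRNA arrays, below every plasmid array, with 939 on the SET∆ array. Sums on siRNA arrays were 448 to 561 for monocyte, 420 to 480 for B cell and 740 to 897 for T cell markers, and the part of any of them in these differences was not tested.

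The 9 genes did not form a single pattern. Over the 17 arrays the log2 signals of FOS, FOSB, JUND and IER2 had Pearson correlations of 0.96 to 0.99 with each other, as a description of arrays that share their kind and spread. FOSL2 correlated with FOS at -0.86, and JUNB with FOS at 0.86. Within the 9 plasmid arrays JUNB and FOS had 0.12, while FOS and JUN had 0.94 and FOS and FOSL2 -0.65. Within the 8 siRNA arrays the highest signal was 1.06 times the lowest for FOSB, 1.19 times for FOS, 1.4 times for JUN and 1.64 times for FOSL2. There FOS and FOSB had 0.10, FOS and JUND 0.65, and FOSB and JUND -0.04. IER2 had -0.48 with FOS, 0.40 with FOSB and -0.78 with JUND within these arrays. The highest correlation among the 9 genes there was that of JUNB and JUND at 0.92. Against the mean of the 9 genes, centred per gene, the correlation over 17 arrays was 0.991 for FOS, 0.988 for IER2, 0.985 for FOSB, 0.983 for JUND, 0.945 for JUN, 0.889 for EGR1, 0.832 for JUNB, 0.709 for EGR3 and -0.796 for FOSL2. That mean includes the gene itself. Within the 8 siRNA arrays the correlation with it ran from -0.258 for IER2 to 0.742 for FOSL2.

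The 5 other genes whose log2 signals were most like that mean over the 17 arrays were ATF4, HSPA2, ZNRF2P1, CHAC1 and SNORA10, with correlations of 0.983 to 0.986. ATF4, the transcription factor of the integrated stress response, lay between 254.4 and 346.2 on siRNA arrays and between 463.8 and 1127.3 on plasmid arrays. CHAC1, a glutathione-degrading enzyme, lay between 73.2 and 99 and between 133.5 and 294.2. HSPA2, a chaperone of the HSP70 family, lay between 65.2 and 79 and between 102.7 and 270.9. ZNRF2P1, a pseudogene, spanned 221.9 to 251.5 and 296.4 to 478.6, and SNORA10, a small nucleolar RNA, 558.1 to 760.2 and 847.7 to 2709.1. The 5 were picked by likeness to a mean that itself differs between siRNA and plasmid arrays. That their siRNA and plasmid ranges did not overlap is therefore no separate result. Their correlations with that mean were 0.96 to 0.979 within the 9 plasmid arrays and 0.416 to 0.62 within the 8 siRNA arrays.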

How the data were processed

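Transcript levels were measured on 17 single-colour arrays of NKYS cells. Per the labels' protocols, total RNA was extracted with TRIzol and a column and converted to biotinylated cDNA with Nugen kits. The values were deposited by the authors as linear signal intensity for 28869 probe sets. The sources used here do not give the background correction, normalization or probe summary, and no further scaling was applied before log2. The platform annotation gave 1 symbol to 19310 probe sets, several to 1752 and none to 7807. Gene identifiers were set against RefSeq (GRCh38.p14), where 19279 matched and 0 symbols changed. A gene with several probe sets was read from the one of highest mean signal. No array repeated another.

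The models were fitted by limma (version 3.58.1, R 4.3.3; lmFit and eBayes, two-sided tests, Benjamini-Hochberg adjustment over all genes, threshold 0.05), on genes with a mean at or above the 30th percentile of all probe sets in the arrays of the fit. All 9 measured genes passed it. The 8 siRNA arrays formed a single fit, with the EZH2 pair as a block because the titles tie those arrays, and 3 residual degrees of freedom. The 8 numbered plasmid arrays formed the plasmid fits, and the vector comparison used 6 arrays. Deviations of like-numbered arrays from their group means correlated at -0.085 in the EZH2 arm, 0.153 in the JAK3 arm, 0.85 to 0.918 among vector, Y244D and WT arrays, and 0.009 to 0.194 between these and the Y244A arrays. Since not every plasmid pair was above 0.1, the numbers were not taken as pairs in the reported fit of full-length plasmids, and the set as a block is given beside it. That limit was not applied to the siRNA arms, where the titles decided. The EZH2 pair was thus a block at -0.085, and the JAK3 arm had none at 0.153. The fits were also run on simulated data with independent errors per array and no difference between sets. That run cannot speak to variation shared within plasmid sets, and its outcome is not given here. Named are the 9 genes, JAK3, EZH2, up to 3 called genes per direction from each list by smallest adjusted p (otherwise the 2 with the smallest p), and the 5 genes most like the mean of the 9. The genes and lists were chosen with earlier results of these data known.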

Additional observations from a re-analysis of the deposited data

Results flagged for a closer look

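FOS had a sample far from the others among the 4 control siRNA arrays. The control for JAK3 number 1 was at 82.7, and its gap to the next array was 0.849 of the range of the 4, while the other 3 lay between 76.3 and 77.2. Chance marks about 1 group in 20 in this way, and 18 groups were examined.

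JUNB differed in direction between the plasmid sets. The mean log2 difference of the full-length plasmids from their vector was 0.25 in set 1, where all 3 arrays were above it, and -0.13 in set 2, where all 3 were below. The 3 differences of a set share 1 vector array and are not independent, and the share of all genes with such a turn was not counted. The difference between sets was not tested.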

How the results depend on the processing

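The EZH2 pair is the only replicate block in the reported fits. Without that replicate block, 20 genes in place of 136 and 0 of the 9 genes in place of 1 were called after EZH2 siRNA. A replicate block in the JAK3 arm too gave 104 genes in place of 200 after JAK3 siRNA. For the difference between the siRNA effects the count of 53 genes became 19 with a replicate block in both arms and 29 with no replicate block in either. For full-length plasmids the set as a replicate block gave 0 genes, as without it. The pairing changed no other call of the 9 genes.

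Other settings moved counts as follows. Without the filter on low signal, 94 genes were called after JAK3 siRNA, 0 genes and 0 of the 9 after EZH2 siRNA, 15 in the difference of effects and 356 between control arms in place of 624. Fits on the arrays of a single comparison called 523 genes for JAK3 siRNA, 217 for EZH2 siRNA and 214 between control arms. Quantile normalization gave 80 genes and trended robust variance 230 for EZH2 siRNA, and the latter called 1 of the 9 genes between control arms. Between sets, 1758 genes were called with a term for each title allele and 10194 without both arrays titled Y244A, the latter chosen after seeing the data, against 4966. For the vector, the controls of the JAK3 arm alone gave 0 genes and 0 of the 9, and those of the EZH2 arm alone 313 genes and 0 of the 9, against 2315 and 6. The cause was not tested.

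Some values not called turned in direction. After quantile normalization FOSB was at 0 after JAK3 siRNA and at 0 between control arms, JUNB at -0.01 with full-length plasmids, EGR3 at 0.02, FOSL2 at -0.14 and JUNB at -0.15 between sets, and EGR3 at -0.18 for the vector. After median centring IER2 was at 0 in the difference of effects and EGR3 at -0.16 for the vector, and with the controls of the JAK3 arm alone EGR3 was at -0.01.

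Leaving out 1 array at a time gave these ranges. After JAK3 siRNA 33 to 45 genes were called and FOSB lay at 0 to 0.02. After EZH2 siRNA 0 to 1511 genes and 0 to 2 of the 9 were called, with EGR1 at -0.01 to 0.14, IER2 at -0.06 to 0.02 and JUNB at -0.02 to 0.22. In the difference of effects 14 to 323 genes and 0 to 2 of the 9 were called, with FOS at -0.04 to 0.13, IER2 at -0.06 to 0.02, JUNB at -0.02 to 0.22 and JUND at -0.13 to 0.03. Between control arms 100 to 994 genes and 0 to 1 of the 9 were called, with EGR1 at -0.1 to 0.05, FOS at -0.02 to 0.1, FOSB at -0.04 to 0.02, FOSL2 at -0.29 to 0.12 and JUNB at -0.03 to 0.21. With full-length plasmids 0 genes were called each time, with EGR1 at -0.35 to 0.24, FOS at -0.42 to 0.58, FOSB at -0.75 to 0.51, FOSL2 at -0.14 to 0.07, IER2 at -0.34 to 0.23, JUN at -0.2 to 0.55, JUNB at -0.09 to 0.21 and JUND at -0.18 to 0.34. Between sets 1680 to 8353 genes were called and JUNB lay at -0.07 to 0.08. For the vector 1030 to 12220 genes and 3 to 8 of the 9 were called, with EGR3 at -0.03 to 0.05.

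Each siRNA, its control and the vector have 2 arrays, the SET∆ plasmid has 1, and a lone array left in a group is assumed to vary like the others. No detection limit was given with the signals, so how far low values such as those of EGR3 lie above background is not known here.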
